A study of Mus musculus with 4 samples.

Results

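The 34 interferon-stimulated genes described here are genes that cells transcribe after interferon has reached its receptors. They were taken by symbol from a list, and each symbol was found once among the 28692 genes of the deposited table. The list holds antiviral effectors (Ifit1, Ifit2, Ifit3, Ifit3b, Mx1, Rsad2, Cmpk2, Ifitm2, Ifitm3, Bst2, Oas1a, Oasl1, Oasl2, Eif2ak2, Samhd1, Isg20), nucleic acid sensors (Ifih1, Ddx58, Zbp1, Ifi204), transcription factors (Irf1, Irf7, Irf9, Stat2), regulators of protein fate (Isg15, Usp18, Trim30a, Parp14) and genes of other roles (Rtp4, Ifi27l2a, Ifi35, Xaf1, Lgals3bp, Slfn2). The questions were at what level these genes were read in all cells, whether their counts lay in few cells, and which genes were read together.

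The cells were microglia and other myeloid cells from the cortex and hippocampus of 4 male C57BL/6J mice at postnatal day 90, with 1 library per mouse. All 4 formed 1 group. Each mouse had received phosphate-buffered saline (PBS) into the tail vein, 24 hours before it was killed according to the labels (the study's methods give another interval), and the brain tissue was broken up in a Dounce homogeniser kept cold, without enzymes. Live cells positive for both CD45 and CD11b were sorted, so the gate let through every myeloid cell and not only microglia. No treatment was compared, so the comparisons were between replicates and between classes of cells within each mouse. The study's supplement states that the sorter clogged during the final mouse, its Sample 4, whose cells went back on ice and were then sorted anew. The supplement also reports that its ex vivo activation signature (genes switched on outside the body) was found almost only in that sample. The sample labels carry other numbers, and replicate 4 is the last of the 4 by them, so counts without replicate 4 are given.

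Interferons are secreted proteins that bind receptors on the cell surface. The receptors switch on kinases, and factors such as STAT2 and IRF9 then act at short DNA elements in front of the interferon-stimulated genes. In the brain, a small share of microglia with these genes switched on is known as the interferon-responsive state, and some of the genes are also read at a low level in resting cells.

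The DNA next to the start of transcription was examined first, because the interferon-stimulated response element holds GAAA, any 2 bases and GAAA again (TTTC, any 2 bases and TTTC when read on the other strand). RefSeq promoter windows on GRCm38.p6, from 250 bases before to 50 bases after each start, were found for 27 of the 34 genes. Rtp4, Usp18, Ifi204, Ifi27l2a, Mx1, Zbp1 and Parp14 had no window. The motif stood on either strand in a window of 14 of the 27 genes (51.9%), against 3.99% of all 27025 genes with a window, and 7 of the 27 held 2 or more matches in 1 window. A match describes the letters and is no evidence of binding. The following stretches show, in capitals, every match of this paired GAAA or TTTC motif within them. They cover genes with most of their counts in few cells (Ifit1, Ifit3, Ifit3b, Rsad2) and Isg15, with 32.6% of its counts there. Also shown are the most abundant member (Bst2) and the pair that led the border myeloid cells (Ifitm2, Ifitm3). All are written 5′ to 3′ on the strand of the gene.
Isg15, chr4:156200837-156200936, minus strand: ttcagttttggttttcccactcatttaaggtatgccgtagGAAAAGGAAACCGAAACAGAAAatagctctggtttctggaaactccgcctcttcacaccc
Ifit1, chr19:34640745-34640844, plus strand: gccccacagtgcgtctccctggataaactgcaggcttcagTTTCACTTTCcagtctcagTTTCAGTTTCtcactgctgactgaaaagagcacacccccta
Ifit3, chr19:34583333-34583432, plus strand: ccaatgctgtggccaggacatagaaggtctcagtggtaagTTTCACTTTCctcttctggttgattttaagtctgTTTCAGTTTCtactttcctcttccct
Ifit3b, chr19:34607729-34607828, plus strand: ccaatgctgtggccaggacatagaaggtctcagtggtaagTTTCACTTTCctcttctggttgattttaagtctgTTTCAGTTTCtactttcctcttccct
Rsad2, chr12:26456513-26456612, minus strand: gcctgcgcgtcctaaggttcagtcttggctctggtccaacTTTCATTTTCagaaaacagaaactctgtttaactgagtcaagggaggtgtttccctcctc
Bst2, chr8:71537543-71537642, minus strand: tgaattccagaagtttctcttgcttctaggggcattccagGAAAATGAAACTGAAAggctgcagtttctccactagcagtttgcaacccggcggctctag
Ifitm2, chr7:140955988-140956017, minus strand: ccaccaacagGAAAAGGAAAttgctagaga
Ifitm3, chr7:141010715-141010744, minus strand: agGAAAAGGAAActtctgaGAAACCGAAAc

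The Ifit3 and Ifit3b stretches are the same, and their windows share an unbroken run of 169 bases. These 2 genes lie beside Ifit2 and Ifit1 on chromosome 19 (Ifit2 from 34550694, Ifit3 from 34583531, Ifit3b from 34607970 and Ifit1 from 34640871). Rsad2 and Cmpk2 are neighbours on chromosome 12, Oasl1 and Oasl2 on chromosome 5, and Ifitm2 and Ifitm3 on chromosome 7. The 14 genes with the paired GAAA motif ranged from 2.76% (Ifitm2) to 82.1% (Ifit3b) in the share of their counts held by few cells, a measure defined below (median 11.96%), and the 13 genes without it from 2.68% (Samhd1) to 75.6% (Oasl1, median 8.52%). Matches in the windows thus stood near the starts of genes of both kinds. Those printed for Ifitm3 lie after its start, in a stretch that overlaps an exon of the gene.

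After quality control 13002 of 13138 cells remained (3576, 3692, 2576 and 3158 in replicates 1 to 4), with totals of 5841671 to 11267195 counts of unique molecular identifiers (UMIs, each standing for 1 captured RNA molecule) and medians of 1905, 2936, 2197 and 2786 UMIs per cell. All libraries differed from each other by more than sampling noise (chi-square 4.00 to 8.54 per degree of freedom), and 84 barcode strings recurred between pairs of libraries. The microglial marker list (10 genes, all detected) summed to 41622 ± 642 CPM (UMIs of a gene over all UMIs of the library, on the usual CPM scale, SD, n = 4), the macrophage list to 50.03 ± 30.1 CPM and the monocyte list to 37.7 ± 18.6 CPM. Levels are given in CPM throughout. The libraries count 3′ ends, so a level does not grow with gene length and genes may be compared.

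Summed over the 34 genes, the level was 1099 CPM in replicate 1, 905 in replicate 2, 866 in replicate 3 and 893 in replicate 4, on average 940.9 CPM with an SD of 106.8 (n = 4). The exact 95% Poisson intervals were 1075 to 1124, 888 to 923, 843 to 891 and 873 to 912 CPM, and they cover counting error only. Replicate 1 stood above the other three, whose intervals overlapped. In Dixon's range test (two-sided), which divides the gap to the nearest library by the whole range, its ratio was 0.832, above the critical value at 95%. Replicate 1 also had the lowest median UMI count per cell. The ratio fell below the critical value, to 0.675, without the border myeloid cells, and to 0.721 and 0.730 with TMM and DESeq2 scaling. Of the 21 members that averaged at least 10 CPM, 19 had their top value in replicate 1, compared with 21.6% of all 7656 genes at that level. The genes of 1 library share its cells, so this count was not tested. The median SD of log2(CPM + 1) over the 4 libraries was 0.19 for these members and 0.11 for all genes.

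The most abundant members were Bst2, Lgals3bp, Ifi35, Trim30a, Samhd1 and Irf9. Bst2 (ENSMUSG00000046718, chromosome 8, 71534255 to 71537456), which encodes tetherin, a membrane protein that holds budding virus on the cell, had 192, 160.2, 164 and 169 CPM (mean 171 ± 14.3 CPM). Lgals3bp (ENSMUSG00000033880, chromosome 11, 118392751 to 118402092), a secreted glycoprotein that binds galectins, had 120.2, 93.6, 81.7 and 75.8 CPM (mean 92.8 ± 19.7 CPM). Bst2 was the only member at 100 CPM or more, and no library of any other member reached its lowest library. Ifi35 (ENSMUSG00000010358, chromosome 11, 101448407 to 101458698), an interferon-induced leucine zipper protein, had 79.4, 79.1, 78.7 and 73.7 CPM. Trim30a (ENSMUSG00000030921, chromosome 7, 104409025 to 104465193), a member of the TRIM family of ubiquitin ligases, had 74.7, 68.8, 66.6 and 61.9 CPM. The ranges of Lgals3bp and Ifi35 overlapped, and so did those of Ifi35 and Trim30a. Samhd1 (ENSMUSG00000027639, chromosome 2, 157097533 to 157135265), which breaks down the deoxynucleotides that viruses need, had 66.3, 67.5, 60.4 and 66.3 CPM. Irf9 (ENSMUSG00000002325, chromosome 14, 55603571 to 55610030), a DNA-binding partner of STAT2, had 58.1, 55.0, 47.9 and 51.0 CPM. Samhd1 overlapped Trim30a, and every library of Irf9 lay below those of Samhd1.

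Only Ifi35 and Samhd1 had 1 library apart among the 21 members at 10 CPM or more, compared with 4.62% of all genes tested. Ifi35 was low in replicate 4 (ratio 0.895) and Samhd1 was low in replicate 3 (ratio 0.837), and in both the gap was small beside the level. With TMM scaling neither was apart.

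Transcription factors were spread widely in level, from Irf9 at 53.0 ± 4.47 CPM and Irf1 at 37.5 ± 1.02 CPM to Stat2 at 10.6 ± 2.02 CPM and Irf7 at 6.38 ± 1.42 CPM. The RNA sensors Ddx58, which encodes RIG-I, and Ifih1, which encodes MDA5, had 19.6 ± 2.16 and 14.01 ± 1.62 CPM. Zbp1, a sensor of Z-form nucleic acid, had 2.73 ± 1.08 CPM. The Ifit genes, whose products bind viral RNA, had 12.6 ± 3.33 CPM (Ifit3), 4.00 ± 1.75 CPM (Ifit1), 2.71 ± 0.66 CPM (Ifit2) and 2.59 ± 0.97 CPM (Ifit3b). In all, 13 members lay below 10 CPM, 11 of them below 5 CPM, and the lowest was Oasl1 at 0.454 ± 0.400 CPM, from 7, 1, 3 and 2 UMIs. Every member had at least 1 UMI in each library.

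**Figure D1:**
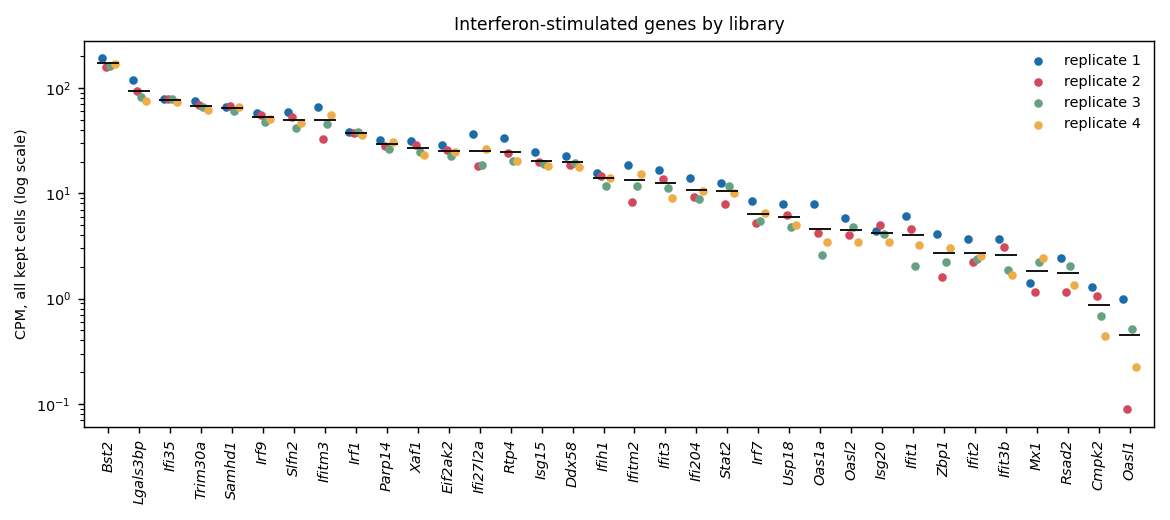
Level of each of the 34 interferon-stimulated genes in all kept cells of each library, in CPM on a log scale, with 1 coloured point per replicate and a bar at the mean. Bst2 lies highest at a mean of 171 CPM and Oasl1 lowest at 0.454 CPM, and replicate 1 (blue) holds the highest point of 30 of the 34 genes.

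The next comparison asked whether a gene's UMIs were spread over all cells or held by few. Carriers of the interferon response were found with 12 of the members, called selectors: Ifit1, Ifit2, Ifit3, Ifit3b, Isg15, Irf7, Usp18, Oasl1, Rsad2, Cmpk2, Mx1 and Ifi204, with Ifit3 and Ifit3b counted as 1. For each member, cells with at least 2 of the other selectors were set apart, after leaving out border myeloid cells. For the 22 members that are no selectors these were 153 cells, which held 1.27% of all UMIs. No test was made on this measure, since the selectors are themselves members.

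The share of UMIs in those few cells ran from nearly all to hardly more than the cells' own share. Ifit3b had 76.9%, 82.9%, 81.8% and 86.7% of its UMIs there in replicates 1 to 4 (mean 82.1 ± 4.01%, SD, n = 4). Ifit1 had 69.7 ± 15.0%, Rsad2, a radical enzyme known as viperin, 68.4 ± 24.1%, and Ifit3 60.8 ± 11.0%. Oasl1 had 75.6 ± 21.9%, from 13 UMIs. In replicate 4 the shares of Ifit1, Ifit3 and Rsad2 were lower, at 48.3%, 44.4% and 33.3%. Oasl2 (ENSMUSG00000029561, chromosome 5, 114896936 to 114912234), a relative of the oligoadenylate synthetases that was not used to find the cells, had 68.3%, 53.3%, 64.3% and 41.9% (mean 57.0 ± 11.8%). Zbp1, also not used, had 41.4%, 66.7%, 38.5% and 22.2% (mean 42.2 ± 18.4%). Both exceeded the cells' own share of all UMIs in every library.

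At the other end stood Samhd1 with 2.68 ± 0.71%, Ifitm2 with 2.76 ± 5.03%, Irf9 with 3.13 ± 0.48%, Irf1 with 3.55 ± 1.19%, Ifi35 with 4.03 ± 1.63% and Bst2 with 5.49 ± 2.88%. The median over the 34 members was 17.5%. For these genes, apart from Ifitm2, the level in the remaining cells was a large part of that in the selected cells. Samhd1 had 62.6 ± 3.45 CPM in the remaining cells and 140.0 ± 7.84 CPM in the selected ones, so the remaining cells reached 45.3% of the selected level. The same figure was 39.5% for Irf9, 33.5% for Irf1, 31.9% for Ifi35 and 21.8% for Bst2. It was 0.243% for Ifit3b, 0.271% for Rsad2, 0.465% for Ifit1 and 0.693% for Oasl2.

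**Figure D2:**
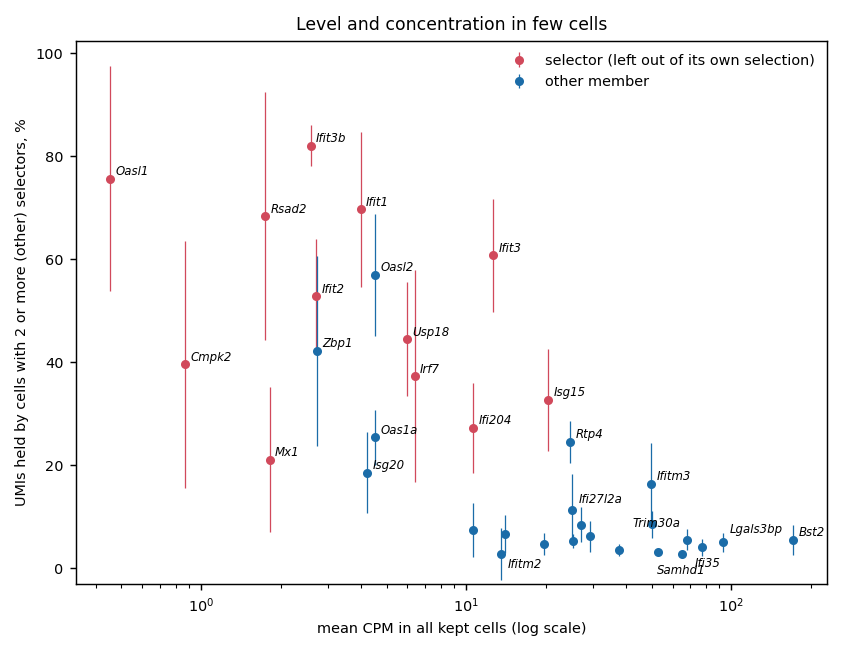
Share of a gene's UMIs held by cells with 2 or more of the other selectors, in percent (points are means and bars SD over 4 libraries), against its mean level in all kept cells in CPM on a log scale, for 12 selectors (red) and 22 other members (blue). Bst2 has 5.49% at 171 CPM and Ifit3b 82.1% at 2.59 CPM, and crowded names below 10% are left out.

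Another measure needs no selector. If UMIs fell on cells by depth alone, a given total would reach a known number of cells, and genes held by few cells reach fewer. Ifitm3, whose product blocks the entry of viruses, was found in 599 cells where 1495.04 would be reached (ratio 0.40), and 1 cell held 58 of its UMIs. Ifitm2 reached 0.43, Rsad2 0.50, Ifit3 0.51, Ifit1 0.52, Ifit3b 0.54 and Ifi27l2a 0.57 of the number expected. Ifi35, Irf1 and Irf9 reached 0.996, 0.99 and 0.986. In all 4 libraries 26 members were found in fewer cells than expected, 16 had a ratio under 0.8 and 11 had a ratio of 0.95 or more. The ratio was worked out for the members only, so whether these counts differ from those of other genes was not tested. Ifit2 reached 0.776. The ratios of Ifitm2 and Ifitm3 were the lowest of the list, while few of the Ifitm2 UMIs lay with the selectors.

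Cells were then put in 4 classes per library. Border myeloid cells, a class named for the macrophages and monocytes of the brain's borders, held at least 3 of 14 macrophage and monocyte markers. Carriers were other cells with at least 3 of the 11 selectors counted. Activation-gene cells held at least 3 of 12 immediate early, stress and chemokine genes, and the remaining cells are called other cells. Each class is a range cut from a count and not a cell type, and 79 cells with 2 selectors lay just below the limit while 31 with 3 lay just above it.

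Carriers numbered 24, 24, 12 and 14, which was 0.671%, 0.650%, 0.466% and 0.443% of cells (exact Clopper-Pearson 95% intervals 0.430 to 0.997%, 0.417 to 0.966%, 0.241 to 0.812% and 0.243 to 0.743%). The mean share was 0.558 ± 0.120% (SD, n = 4), and the intervals of all 4 overlapped. The share depended on the rule, with 1.14% at 2 selectors and 0.318% at 4, and it was 0.274% after each cell was thinned to 1000 UMIs. Carriers had a median of 2436 UMIs and other cells 2392, so depth was similar. Border myeloid cells numbered 8, 14, 16 and 38 and had a median of 4205 UMIs. Activation-gene cells numbered 17, 44, 12 and 466, with replicate 4 far above the others. The supplement places its activation signature in Sample 4, and the labels do not say which replicate that was.

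Carriers held the microglial markers, at a somewhat lower sum. The list summed to 37084 ± 1017 CPM in carriers, with 10 of 10 genes detected, and to 42025 ± 851 CPM in other cells. The carriers of every library (35997 to 38455 CPM) lay below the other cells of every library (40988 to 42932 CPM). None of the 10 genes passed the test of carriers against other cells. Of the 14 macrophage and monocyte markers, 10 were at 0 in carriers, among them Mrc1, Ly6c2 and S100a4. Cells with 3 or more of these markers had been taken out first, so low values in carriers follow in part from the rule. The 2 lists summed to 0 to 34.5 CPM and 13.3 to 73.0 CPM in the carriers of single libraries. Their means were 14.7 and 39.9 CPM in carriers and 9.95 and 10.2 CPM in other cells, so carriers were not lower. The activation list ranged from 200 to 5560 CPM in carriers, and the upper end came from 1 cell of replicate 3 with 111 Ccl4 and 45 Ccl3 UMIs. In border myeloid cells the microglial list was lower but not absent, at 4902, 28757, 22009 and 12219 CPM in replicates 1 to 4. The median depth of the class was 4125, 9796, 5166.5 and 3402.5 UMIs, so the library with the most microglial markers also had the deepest cells. Without the deepest 1% of cells its 14 border myeloid cells became 5. Whether cells caught together (doublets) had a part in this was not tested.

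A cell of the other class held a median of 1 of the 34 genes, a border myeloid cell 8 and a carrier 13.5, with up to 30 in 1 carrier. Among the 22 members that are no selectors, the medians were 1, 7 and 8.5, and 2, 6 and 9 in cells of 2000 to 6000 UMIs. Carriers held 0.594% of all UMIs and 7.53% of the members' UMIs. Other cells held 92.7% of all UMIs and 81.3% of the members' UMIs, so most molecules of this gene set lay outside the carriers. The class of other cells includes cells with 1 or 2 selectors, and 28 of its cells held 10 or more of the 34 genes. For the 12 selectors alone, carriers held 43.4% and other cells 46.0%.

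In summed counts, fewer cells with a gene and less RNA per cell cannot be told apart, so shares of cells with at least 1 UMI are given beside the main genes. Counts summed per library and class were compared with edgeR's quasi-likelihood test, with the mouse as a block, over all genes. A gene is called at a Benjamini-Hochberg adjusted p under 0.05 and a change over 0.58 on the log2 scale, which is 1.49-fold. The standard error (SE) given with an edgeR difference was worked back from the test. It is the size of the log2 difference over the square root of the test's F value. The low-count filter asked for 91.0 CPM in at least as many sums as the design needs, and only Bst2 reached that in all 4 sums of other cells. The members that passed thus mostly did so through the class where they were high, and their number supports nothing. A filter on the total count (at least 50 UMIs) was chosen after the data were seen. It let all 22 members that are no selectors pass, and its counts are given beside. Its standard errors were smaller for some members, such as Ifitm2 in border myeloid cells (0.22 against 0.45 with the low-count filter). For others they were larger, such as Lgals3bp in border myeloid cells (0.27 against 0.23). How well each fit covers the spread between mice was not tested.

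The question for carriers was whether members that played no part in finding them were also higher there. With the filter on the total count, 19 of 22 were higher than in other cells and 0 lower, compared with 0.921% of all 10635 genes higher and 0.103% lower. With the low-count filter 15 were higher of the 17 that passed, compared with 3.49% of 2236 genes higher and 0.134% lower. DESeq2 with that filter also gave 15 higher and 0 lower (3.89% and 0.0894% of all genes). Without replicate 4 the low-count filter gave 13 higher (share of all genes not worked out). The median log2 difference of the 22 was 2.87, and that of all genes tested was -0.36. The values below come from the fit with the low-count filter unless stated, and 6 are repeated with the filter on the total count.

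Oasl2 changed most, with 424, 293, 622 and 268 CPM in carriers and 2.60, 1.84, 1.23 and 0.828 CPM in other cells. It was higher in 4 of 4 libraries without overlap, by 7.85 on the log2 scale (SE 0.56, edgeR adjusted p = 1.02e-10), and was read in 45.9% of carriers and 0.382% of other cells. Zbp1 (ENSMUSG00000027514, chromosome 2, 173206612 to 173218923) had 174, 133, 173 and 73.0 CPM in carriers and 2.17, 0.734, 0.704 and 0.966 CPM in other cells. Its difference was 6.98 (SE 0.77, edgeR adjusted p = 2.35e-07), from 9, 10, 5 and 3 UMIs in the carriers. The levels in other cells were low, but as that class is large it held 51 of the 145 Oasl2 UMIs and 34 of the 87 Zbp1 UMIs, against 73 and 27 in carriers.

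Ifitm3 (ENSMUSG00000025492, chromosome 7, 141009586 to 141010770) had 1678, 666, 1002 and 633 CPM in carriers and 38.7, 21.7, 13.2 and 18.1 CPM in other cells, a difference of 5.39 (SE 0.47, edgeR adjusted p = 4.48e-09). Rtp4 (ENSMUSG00000033355, chromosome 16, 23520291 to 23614222), a receptor transporter protein, had 694, 613, 1036 and 560 CPM in carriers and 29.2, 20.6, 15.5 and 16.4 CPM in other cells. Its difference was 5.14 (SE 0.34, edgeR adjusted p = 2.97e-11), and 79.7% of carriers and 4.09% of other cells held at least 1 UMI. For both genes the carriers of every library lay far above the other cells of every library.

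Ifi27l2a (ENSMUSG00000079017, chromosome 12, 103442167 to 103443680) had 521, 173, 276 and 73.0 CPM in carriers and 29.7, 15.9, 9.15 and 11.6 CPM in other cells, a difference of 3.93 (SE 0.52, edgeR adjusted p = 5.74e-06). Xaf1 (ENSMUSG00000040483, chromosome 11, 72301629 to 72313733), which binds the apoptosis inhibitor XIAP, had 405, 293, 311 and 97.4 CPM in carriers and 28.7, 26.7, 23.0 and 20.6 CPM in other cells. Its difference was 3.49 (SE 0.36, edgeR adjusted p = 7.38e-08). In both the carriers of replicate 4 were lowest, yet still above the other cells of any library. With the filter on the total count, the differences were 7.54 for Oasl2, 6.66 for Zbp1, 5.13 for Ifitm3, 4.85 for Rtp4, 3.68 for Ifi27l2a and 3.25 for Xaf1, and all 6 passed.

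The other members that passed rose by 1.49 to 3.44. Slfn2, a schlafen gene that acts in the quiescence of immune cells, rose by 3.44, Parp14, an ADP-ribosyltransferase, by 3.10, Trim30a by 2.85, Eif2ak2, the RNA-activated kinase PKR, by 2.60 and Bst2 by 2.53 on the log2 scale. Ifi35 rose by 2.28, Irf1 by 2.17, Lgals3bp by 2.15 and Samhd1 by 1.49 (edgeR adjusted p = 0.00909). Samhd1 did not pass without replicate 1 (1.20, edgeR adjusted p = 0.275). With the filter on the total count, Oas1a (5.13), the nuclease Isg20 (4.995), Stat2 (3.31) and Ifih1 (2.86) also passed. Irf9 was 1.08 higher (SE 0.39, edgeR adjusted p = 0.202), Ddx58 1.73 higher with the filter on the total count (SE 0.51, adjusted p = 0.0583 by edgeR), and Ifitm2 2.09 higher (SE 1.60, edgeR adjusted p = 0.868), and these 3 did not pass. Irf9 passed when 2 selectors were enough for a carrier (1.35, edgeR adjusted p = 0.00105).

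**Figure D3:**
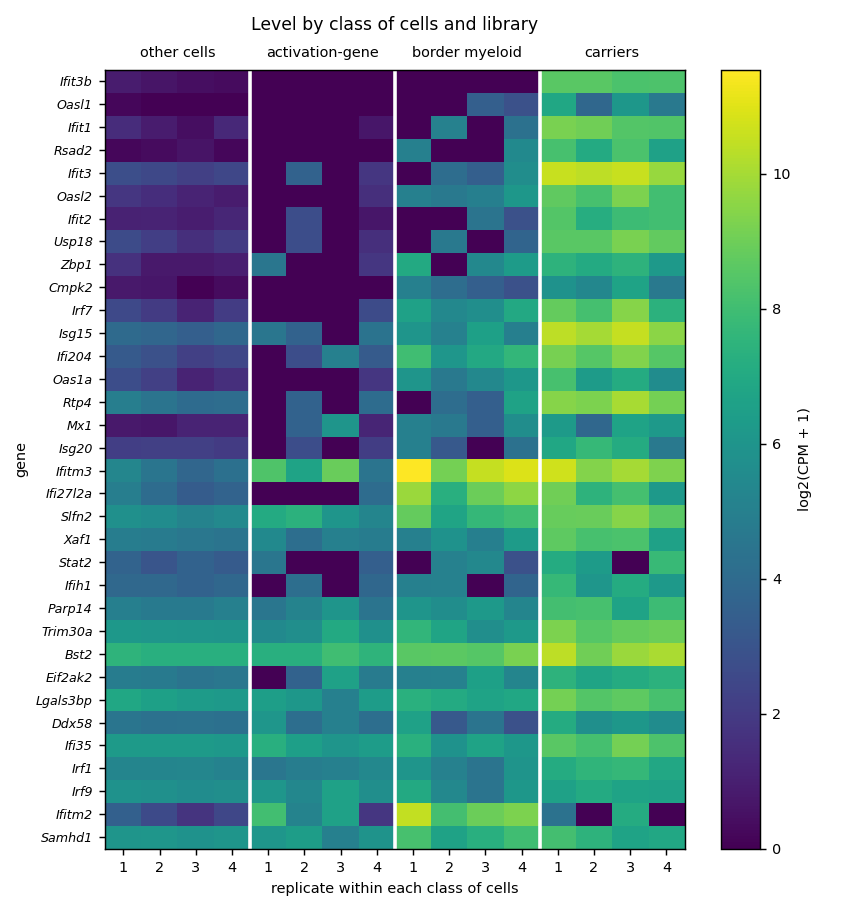
Level of each gene in each class of cells and library, as log2(CPM + 1), with genes ordered by the share of their UMIs in few cells. The carriers of all 4 libraries are bright for nearly every gene, Ifitm2 is brightest in border myeloid cells (271 to 1442 CPM), and Bst2 is visible in every class.

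The selectors define the carriers, so their levels are a description. Ifit3 had 1504, 1332, 1520 and 876 CPM in carriers and 5.77, 4.59, 3.52 and 4.55 CPM in other cells. Isg15, a ubiquitin-like protein that is joined to other proteins, had 1331, 999, 1485 and 730.2 CPM in carriers and 14.7, 12.9, 10.4 and 13.4 CPM in other cells. Isg15 was read in 87.8% of carriers and Ifit3 in 78.4%, and in 2.99% and 1.10% of other cells. Usp18, the protease that removes ISG15, had 386, 386, 587 and 438 CPM in carriers and 1.94 to 5.20 CPM in other cells. Rsad2 was read in 7 of 12313 other cells. Whether single UMIs in other cells came from free RNA was not tested.

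No member is among the markers that define border myeloid cells, so all 34 genes could be compared there. The carriers were taken out of the other cells but 10 border myeloid cells with 3 or more selectors stayed in their class, so selectors, and genes read with them, were set against cells chosen for having few of them. A comparison in which carriers counted among the other cells was therefore added after the data were seen. With it and the filter on the total count, 16 of 32 members were higher (4.21% of all genes) and 0 lower (3.41%), and with it and the low-count filter 7 of 11 (12.5%) and 0 lower (7.08%). As first compared, with the filter on the total count, 17 of the 32 members that passed were higher than in other cells, compared with 4.36% of all genes, and 0 were lower (3.84%). Oasl1 and Cmpk2 had too few UMIs to pass. With the low-count filter 16 were higher of 26, compared with 15.6% of all genes, and 0 lower (11.3%). DESeq2 gave 19 higher (15.6%) and 0 lower (8.41%), and edgeR without a filter 19 of 34 higher (4.61%) and 0 lower (2.9%). Without replicate 4 the low-count filter gave 12 higher (share of all genes not worked out).

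The largest difference was that of Ifitm2 (ENSMUSG00000060591, chromosome 7, 140954837 to 140955987), with 1442, 271, 491 and 623 CPM in border myeloid cells and 10.7, 5.05, 2.29 and 4.41 CPM in other cells. It was 7.06 higher on the log2 scale (SE 0.45, edgeR adjusted p = 6.41e-12) and was read in 77.6% of border myeloid cells, 0.893% of other cells and 2.70% of carriers. Of the Ifitm2 sequence, 23.1% of 98-base stretches at the 3′ end occur in the pseudogenes Gm11951, Gm45717 and Gm8865, so its counts are uncertain to that extent. Ifitm3 had 2980, 566, 1494 and 1931 CPM in border myeloid cells, 6.37 higher than in other cells (SE 0.45, edgeR adjusted p = 3.57e-11). Ifi27l2a had 897, 156, 491 and 765 CPM, 5.28 higher (SE 0.33, edgeR adjusted p = 3.60e-12). In all 3 genes replicate 1 was highest, replicate 2 lowest, and no border sum overlapped the other cells. The makeup of the class also differed between replicates. Monocyte markers summed to 7017, 320, 1821 and 2406 CPM in its replicates 1 to 4, likewise highest in replicate 1 and lowest in replicate 2. Macrophage markers summed to 1314, 2779, 3192 and 3898 CPM and were lowest in replicate 1. A dendritic cell list, with 2 of its 4 genes detected, summed to 513, 107, 113 and 278 CPM. In other cells that list averaged 1.02 CPM. The part of this makeup in the levels was not tested.

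Rsad2, Zbp1 and Oasl2 were also higher, from few UMIs. Oasl2 had 32.0, 24.6, 30.7 and 67.9 CPM in border myeloid cells, 4.87 higher than in other cells (SE 0.70, edgeR adjusted p = 9.47e-06) and above them in every library. Zbp1 had 128, 0, 40.9 and 80.2 CPM (5.72 higher, SE 0.81, edgeR adjusted p = 8.66e-06), and Rsad2 32.0, 0, 0 and 43.2 CPM, from 8 UMIs in all (6.00 higher, SE 1.32, edgeR adjusted p = 0.00150). The empty libraries overlapped the other cells in both, and Rsad2 did not pass without replicate 4 (3.61, edgeR adjusted p = 0.387). With carriers counted among the other cells, and the filter on the total count, the differences were 3.48 for Oasl2, 4.72 for Zbp1 and 3.68 for Rsad2, and all 3 passed.

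Other members that passed in border myeloid cells were Ifi204 (4.87), a DNA sensor of the PYHIN family, Irf7 (4.83), Ifit1 (4.07), Ifit3 (2.72), Slfn2 (2.50), Isg15 (2.11), Samhd1 (1.74), Bst2 (1.65), Xaf1 (1.42) and Lgals3bp (0.67). Ifit1 rested on 0, 4, 0 and 3 UMIs there and Ifit3 on 0, 2, 1 and 8. Their empty libraries overlapped the other cells. With carriers counted among the other cells and the filter on the total count, Ifit3 did not pass (1.12, edgeR adjusted p = 0.255), and Ifit1 (2.13), Isg15 (1.35), Irf7 (3.90) and Ifi204 (4.11) did. The filter on the total count added Mx1 (4.91), an antiviral GTPase, and Oas1a (4.14), and Lgals3bp did not pass under it. When 1 library was left out, Ifit1 did not pass without replicate 2 (3.24), Ifit3 (1.48) and Xaf1 (0.87) without replicate 4, and Lgals3bp without replicate 1 (0.68), 2 (0.69) or 4 (0.55), while Ifit2 passed without replicate 2 (3.29). For Oas1a, 41.2% of 98-base stretches at the 3′ end occur in Oas1g, so these counts cannot be assigned with certainty. Ifit3b had 0 of 413050 UMIs in border myeloid cells, which allows up to 7.26 CPM. Irf9 (0.20), Ifi35 (0.28) and Irf1 (0.38) differed by less than their standard errors or little more, and did not pass. Rtp4 was 1.32 higher (SE 0.56, edgeR adjusted p = 0.0793), it passed without replicate 1 (1.59), and without replicate 4 it changed sign (-0.69).

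The difference between carriers and border myeloid cells was tested directly on the members that are no selectors. With the low-count filter 9 of 17 were higher in carriers and 2 lower, compared with 6.26% and 9.97% of all genes. That filter let members through mostly by the class where they were high, so this count supports nothing by itself. Carriers were chosen by interferon-stimulated genes and border myeloid cells were not, so higher members in carriers follow in part from the rule. With the filter on the total count 13 of 22 were higher and 3 lower (1.04% and 2.87% of all genes), the same numbers as without a filter (0.725% and 2% of all genes). DESeq2 with the low-count filter gave 10 higher and 1 lower (6.98% and 9.21%). Higher in carriers were Rtp4 (by 3.82, SE 0.47, edgeR adjusted p = 8.00e-06), Oasl2 (2.98), Trim30a (2.24), Xaf1 (2.07), Parp14 (2.06), Ifi35 (2.00), Irf1 (1.79), Lgals3bp (1.48) and Bst2 (0.89). Ifitm2 was lower in carriers by 4.97 (SE 0.85, edgeR adjusted p = 2.35e-04) and Ifi27l2a by 1.35 (SE 0.42, edgeR adjusted p = 0.0276). Ifi27l2a did not pass without replicate 3 (-1.38, edgeR adjusted p = 0.0816), without replicate 4 (-0.70, edgeR adjusted p = 0.359) or with DESeq2 (-1.23, adjusted p = 0.237). Irf1 did not pass without replicate 3 (1.46) and Bst2 without replicate 1 (0.68) or 3 (0.79), while Eif2ak2 passed without replicate 3 (1.90) and Slfn2 without replicate 4 (1.28). Ifitm3 was 0.98 lower (SE 0.43, edgeR adjusted p = 0.129) and passed with the filter on the total count and without a filter, and Samhd1 was 0.25 lower (SE 0.37, edgeR adjusted p = 0.719). The 2 neighbours Ifitm2 and Ifitm3 differed from each other: carriers held 192 Ifitm3 UMIs and 5 Ifitm2 UMIs, and border myeloid cells 621 and 227.

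**Figure D4:**
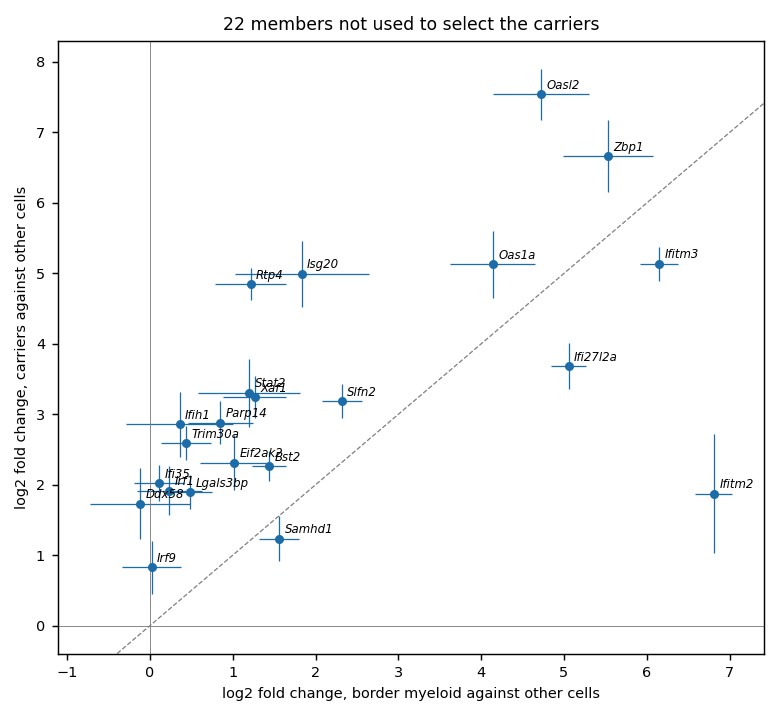
Log2 difference from other cells in border myeloid cells (horizontal) and in carriers (vertical) for the 22 members that did not select carriers, from the fit with the filter on the total count (bars are standard errors worked back from the test, the dashed line marks equal differences). Rtp4 and Isg20 lie far above the line, and Ifitm2, Ifitm3, Ifi27l2a and Samhd1 below it. For some genes the bars are shorter than with the low-count filter, and for others longer.

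Activation-gene cells, which mark an immediate early and stress response, showed no member past the test with the low-count filter (0 of 26 higher or lower, against 0.492% of all genes higher and 0% lower). At an unadjusted p under 0.05 there were 2 members, and DESeq2 called 1, Ifitm3 (0.671% of all genes). Ifitm3 had 327, 103, 479 and 20.7 CPM in these cells, from 15, 18, 15 and 32 UMIs, and Ifitm2 261, 34.3, 95.9 and 2.58 CPM. Replicate 4, with 466 of the 539 activation-gene cells, had the lowest level of both. With the filter on the total count both were called higher (2.02 and 1.87, against 0.404% of all genes), and 2 members were called without a filter (0.321%). The standard error of Ifitm3 was 0.31 with the filter on the total count and 0.59 with the low-count filter. Without replicate 4 the low-count filter gave 3 members, among them Ifitm3 (3.32) and Ifitm2 (4.06). The share of all genes called was not worked out for that fit. Macrophage markers summed to 131, 34.3, 32.0 and 14.9 CPM and monocyte markers to 152, 22.9, 95.9 and 11.6 CPM in the class. Their part in these values was not tested.

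Co-detection asked which members were read in the same cells. For each pair the number of cells with both genes was compared with the number that each gene's total and each cell's depth would give. A pair is called linked with at least 10 such cells, a ratio of at least 3 and an excess in all 4 libraries. Of 561 pairs, 467 were seen in 10 or more cells and 106 were linked. These joined 25 of the 34 genes in 1 group, and no other group formed. At a ratio of 2, 5 and 10 the group held 28, 17 and 14 genes. The points share libraries and depth, so no test is given.

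Zbp1 had the most links (20), followed by Oasl2 (16) and Ifit2 (15). Oasl2 and Zbp1 stood together in 19 cells where 1.05 would be given by depth (ratio 18.0), with 4, 4, 4 and 7 cells in the 4 libraries. Among linked pairs the highest ratios were those of Ifit3b with Rsad2 (12 cells against 0.393, ratio 30.6), Ifit1 with Cmpk2 (27.3) and Ifit2 with Rsad2 (27.3). Pairs of 2 selectors had a median ratio of 10.7 (39 of 66 linked), pairs with 1 selector 2.19 (46 of 264 linked) and pairs without a selector 1.14 (21 of 231 linked). Ifit3 and Ifit3b stood together in 31 cells against 3.23 (ratio 9.60), and 4.71% of the 98-base stretches at the 3′ end of Ifit3 occur in Ifit3b.

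Bst2, Lgals3bp, Ifi35, Trim30a, Samhd1, Irf9, Irf1, Ddx58 and Oasl1 had no link. The highest ratio a pair can reach falls as a gene is found in more cells. Bst2 was found in 4208 of 13002 cells, so a ratio of 3 was hardly within its reach. That limit was also low for Lgals3bp (2471 cells) and Ifi35 (2296 cells), so missing links of abundant genes say little. Oasl1 had too few cells, while the ratios of the 28 pairs among the other 8 ranged from 0.902 to 1.26 (median 1.003). Ifi35 and Bst2, for example, stood together in 824 cells where 863 would be given by depth. Pair ratios among these 8 genes were thus near 1, although Bst2, Lgals3bp, Ifi35, Trim30a, Samhd1 and Irf1 were higher in carriers. Taken singly, Lgals3bp reached 0.919, Bst2 0.940 and Trim30a 0.964 of the number of cells expected from depth, below it in all 4 libraries. The largest carrier shares among them, 5.52 ± 2.08% for Trim30a and 5.49 ± 2.88% for Bst2, leave most of their UMIs elsewhere.

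Ifitm2 was linked to Zbp1, Oas1a and Ifi204 when all cells were used, and to no gene without the border myeloid cells. Ifitm3, linked to 3 genes in all cells, was linked to 8 without them. The expected numbers spread a gene's UMIs over all cells, which lowers the ratio of genes such as Ifitm3 that have many UMIs in 1 cell. Without border myeloid cells 101 pairs were linked, of which 91 were linked in both.

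**Figure D5:**
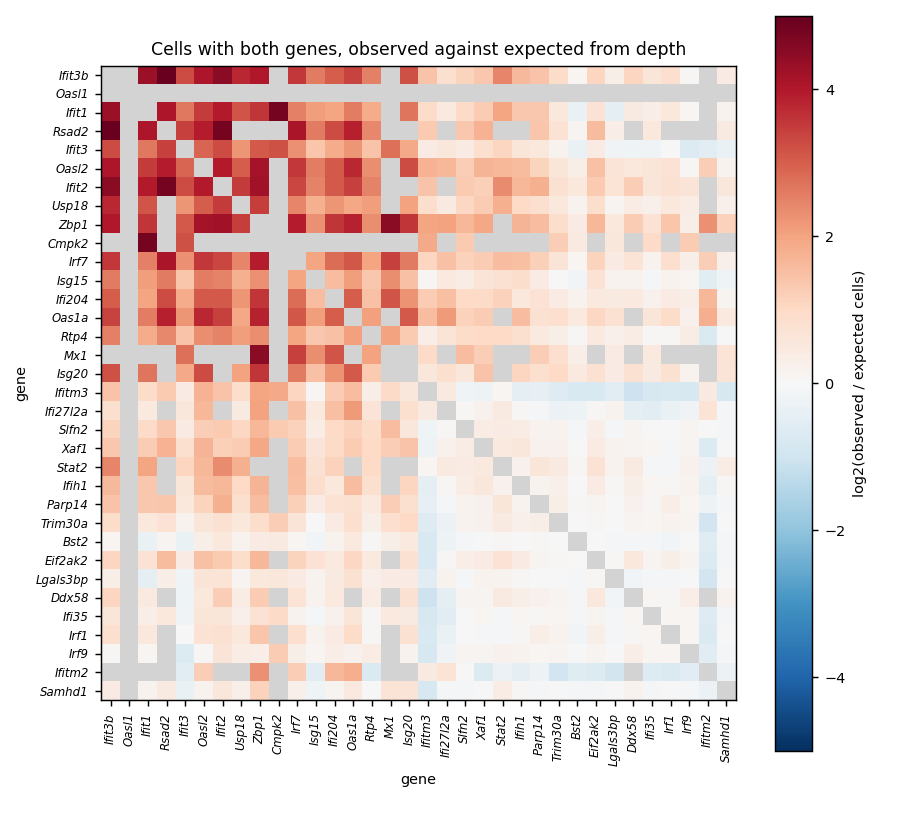
Log2 of the observed over the expected number of cells with both genes, for every pair of the 34 genes (colours end at 5 and -5, grey marks the diagonal and pairs seen in fewer than 10 cells). The genes with most of their UMIs in few cells form a red block at the upper left, and pairs among the abundant genes at the lower right are near 0.

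The rest of the interferon pathway was read with fixed lists. The 8 type I and III interferon genes listed and Ifng, the type II interferon, had 0 UMIs in every library, which allows up to 0.0905 CPM over all 33165655 UMIs. The receptor genes were read in all cells, with Ifnar2 at 284 ± 22.9 CPM and Ifnar1 at 79.8 ± 2.26 CPM. Of the 7 receptors and kinases, 5 were tested with the low-count filter, and 0 were called in carriers or in border myeloid cells. Without that filter Ifngr1, a receptor chain for type II interferon, was 0.80 lower in carriers (edgeR adjusted p = 0.0360, against 0.077% of all genes lower). Ifngr1 was also called lower in border myeloid cells without that filter, against 2.9% of all genes lower. The median difference of all genes in the carrier comparison without that filter was -0.63.

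Of the transcription factors outside the list, Irf8, a factor of the myeloid lineage, was 0.67 lower in border myeloid cells and did not pass there without replicate 1 (-0.46) or 4 (-0.68). Of 9 sensors and adaptors 2 passed the low-count filter and 0 were called in carriers, while without the filter Dhx58 (3.21), a relative of RIG-I, and the RNA sensor Tlr3 (1.74) were higher (against 0.77% of all genes higher). Of 5 feedback genes, Socs1, an inhibitor of the kinases, was 2.75 higher without the filter.

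A list of 42 other interferon-induced genes had 40 in the gene table. Without a filter, 26 of the 40 were higher in carriers and 0 lower, compared with 0.77% and 0.077% of all genes. With the low-count filter, which lets genes through by the class where they are high, 19 of 20 were higher (3.49% of all genes). The largest differences were those of Ccl12 (5.35), Ms4a4c (5.12), Ly6a (4.38) and Sp100 (4.07). Ccl12, a chemokine that draws monocytes, had 6152, 4902, 2797 and 2142 CPM in carriers and 89.2, 85.9, 98.5 and 107 CPM in other cells. It was read in 53 of 74 carriers (71.6%) and in 16.5% of other cells, and the highest single carrier held 134 of its 856 UMIs. In border myeloid cells, without a filter, 11 of the 40 were higher and 0 lower, compared with 4.61% and 2.9% of all genes. With the low-count filter 4 of the 20 were higher there, a share near the 15.6% of all genes. These were Ms4a4c (6.13), Sp100 (2.72), Ube2l6 (1.52) and Ccl12 (1.36). Of 8 genes of MHC class I presentation, Tap1, the peptide transporter (2.35), and Psmb8 (0.92) were higher in carriers, and H2-D1 (1.64), H2-K1 (0.97) and Psmb8 (0.80) in border myeloid cells. Psmb8 passed in neither class without the low-count filter, and in carriers not without replicate 4 (0.81). Ccl12 did not pass in border myeloid cells without replicate 4 (1.10).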

How the data were processed

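Droplet libraries of single cells (10x 3′ chemistry version 2) from 4 mice were used, each mouse being 1 replicate of 1 group. The authors deposited UMI counts per gene and cell for filtered barcodes, and the submitters' processing notes name Cell Ranger 2.2.0 and mm10. A cell was kept if it had 400 genes or more and if mitochondrial UMIs made up no more than 10%. Doublets were not called and empty droplets were not analysed here. Counts were summed per library and class and compared with edgeR 4.0.16 (quasi-likelihood test, TMM, filterByExpr, mouse as a block, R 4.3.3), with Benjamini-Hochberg adjustment over all genes. The block rests on classes of 1 mouse sharing a library. DESeq2 1.42.0, other filters and cell rules, and leaving out each library were alternatives. Dixon's range test compared the 4 libraries. Scripts used Python 3.11.15 and were tested on simulated data. Coordinates are those of GENCODE release M21 on GRCm38.

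Genes named in full were the 6 highest in CPM, the 6 with the largest change past the call in carriers and in border myeloid cells, and those with 1 library apart. From pathway lists up to 4 called genes with the largest change were named. Genes outside this rule were named after their values were seen. The members and lists were chosen with earlier results of these data known. The floor for a count of 0 is 3 counts. Depth per library ranged from 5841671 to 11267195 UMIs. 1 gene of the transcription factor list is not reported here.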

Additional observations from a re-analysis of the deposited data

Results flagged for a closer look

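Of 54 values per library put to Dixon's range test, 6 had 1 library apart, and chance alone sets about 1 in 20 such groups apart. The summed level of the 34 genes was high in replicate 1 (ratio 0.832, 1099 CPM against 866 to 905 CPM), and so was that of the 22 members that are no selectors (ratio 0.839, 1008 CPM against 805 to 838 CPM). The share of activation-gene cells was high in replicate 4 (ratio 0.949, 14.8% against 0.466 to 1.19%). Ifi35 was low in replicate 4 (ratio 0.895, 73.7 CPM against 78.7 to 79.4 CPM) and Samhd1 was low in replicate 3 (ratio 0.837, 60.4 CPM against 66.3 to 67.5 CPM). Ifitm2 in carriers was high in replicate 3 (ratio 0.860, 138 CPM from 4 UMIs, against 1, 0 and 0 UMIs).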

How the results depend on the processing

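The ratio of the range test for the summed level was 0.832, and it was 0.745 after the deepest 1% of cells was left out, 0.675 without border myeloid cells, 0.721 with TMM scaling and 0.730 with DESeq2 size factors, all below the critical value. Of the 2 members with 1 library apart, 1 was left at a limit of 5% mitochondrial UMIs and 0 with TMM scaling. The share of carriers was 1.14% with 2 selectors, 0.318% with 4 and 0.274% after thinning to 1000 UMIs. The median share of a member's UMIs in few cells was 28.0% with 1 other selector needed, against 17.5%. Linked pairs numbered 161 at a ratio of 2, 68 at a ratio of 5 and 66 after thinning.

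The count of members higher in carriers (15) ranged from 10 to 19 over all alternatives and that in border myeloid cells (16) from 7 to 19. It was 7 with carriers counted among the other cells (chosen after the data were seen), where 11 members passed the low-count filter, and 16 of 32 with the filter on the total count besides. Leaving out 1 library gave 11 to 16 and 12 to 16. Shares of all genes called were worked out for the filters, DESeq2 and carriers counted among the other cells. They were not worked out for fits without 1 library, without the replicate block or with other cell rules. Counts from those fits thus have no share to be set against. Members higher in activation-gene cells numbered 1 with DESeq2, 2 without a filter, 2 with the filter on the total count (chosen after the data were seen), 2 with 2 activation genes needed, and 0 to 3 when 1 library was left out. Between carriers and border myeloid cells, the 9 higher members became 5 without the deepest 1% of cells and 5 in cells of 2000 to 6000 UMIs, where 11 members were tested. The 2 lower became 1 with DESeq2 and 1 to 2 when 1 library was left out (1 without replicate 3 or without replicate 4).

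Without the replicate block, which pairs classes of the same mouse, 15 members were higher in carriers, 17 in border myeloid cells and 0 in activation-gene cells, and 9 were higher and 1 lower in carriers than in border myeloid cells.

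Over 1136 alternatives for single genes, 6 changed sign, and the cause was not tested. Leaving out 1 library, Ifitm2 in carriers ran from -0.22 (without replicate 3) to 2.79. In border myeloid cells Ifit3b, with 0 UMIs there, was 2.24 with DESeq2, Irf9 was -0.027 without a filter, Irf1 ran from -0.13 (without replicate 4) to 0.66 and Rtp4 from -0.69 (without replicate 4) to 1.65. Samhd1 between carriers and border myeloid cells ran from -0.57 to 0.22 (without replicate 4). None of these had passed the test. Depth limited members such as Oasl1, with 13 UMIs in all.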
